A study of Rattus norvegicus with 12 samples.

Results

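Untreated cultures labelled as aortic endothelial cells (EC) were compared with the pancreatic carcinoma cells AS and ASD61A, using 4 of the 12 samples of a rat expression array study: 2 EC arrays and 1 array for each carcinoma line. The members are arrays, chosen by their labels and by no measured value. All material came from BDX rats. The EC came from aorta, were maintained in EBM2 or MCDB131 medium with 2 to 5% serum (FCS) and 5 ng/ml of the endothelial growth factor VEGF, were starved overnight, and then stood for 24 h in RPMI medium with 2% FCS and no exosomes. AS is the parental carcinoma line. ASD61A is a derivative of AS that stably expresses the tetraspanin Tspan8 and is called AS-Tspan8 here. Both lines grew in RPMI with 10% FCS, and the labels do not say whether the cells profiled were starved. Serum, starvation and medium therefore changed together with cell identity, and these cannot be told apart. The labels do not say that the EC arrays came from separate cultures, and the derivative is a single line, so the p-values reflect no more than how far these 4 samples spread.

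Cells of a vessel wall, of connective tissue and of an epithelial tumour can be told from each other by the genes they keep on. Endothelium is known for VE-cadherin (Cdh5), von Willebrand factor (Vwf) and the angiopoietin receptors (Tek, Tie1). Fibroblasts of the adventitia and other connective tissue are known for fibrillar collagens, small proteoglycans such as decorin, and the platelet-derived growth factor receptor Pdgfra. Carcinoma cells of pancreatic ducts usually keep simple keratins such as Krt19, and they divide faster than starved cells.

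Each array gave a signal intensity and a detection p-value for 22523 probes, of which 13793 carried a gene name, for 13337 genes. A probe is called detected where its detection p-value, the comparison with the array's negative control probes, was under 0.01. The EC arrays detected 8825 and 8804 probes, AS 9269 and AS-Tspan8 9389. The summed signal was 11706700 and 12167200 on the EC arrays, 13714500 for AS and 21955900 for AS-Tspan8, so the AS-Tspan8 array was the brightest. Array number, not read depth, limits the precision here. Signals below are as deposited, before normalisation, and differences are on the log2 scale after normalisation of the 4 arrays together, EC minus the mean of both lines, ± the standard error of limma's fit (n = 2 and 2).

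The 4 arrays fell into 2 close pairs. Across the 9676 features tested, which are 7187 named genes and otherwise unnamed probes, the EC arrays correlated at 0.987 and the lines at 0.967, whereas an EC array and a line correlated at 0.723 to 0.739. These are correlations across genes of jointly normalised arrays, and genes are not independent replicates. The median absolute log2 difference was 0.21 between the EC arrays and 0.24 between the lines. Only 179 features (1.85%) differed by more than 1 log2 unit between the EC arrays, 645 (6.67%) did so between AS and AS-Tspan8, and 3594 to 3849 did so between an EC array and a line. In the scatter of mean levels, many genes lie along the lower edge of 1 axis, where a group gave no detection.

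**Figure D1:**
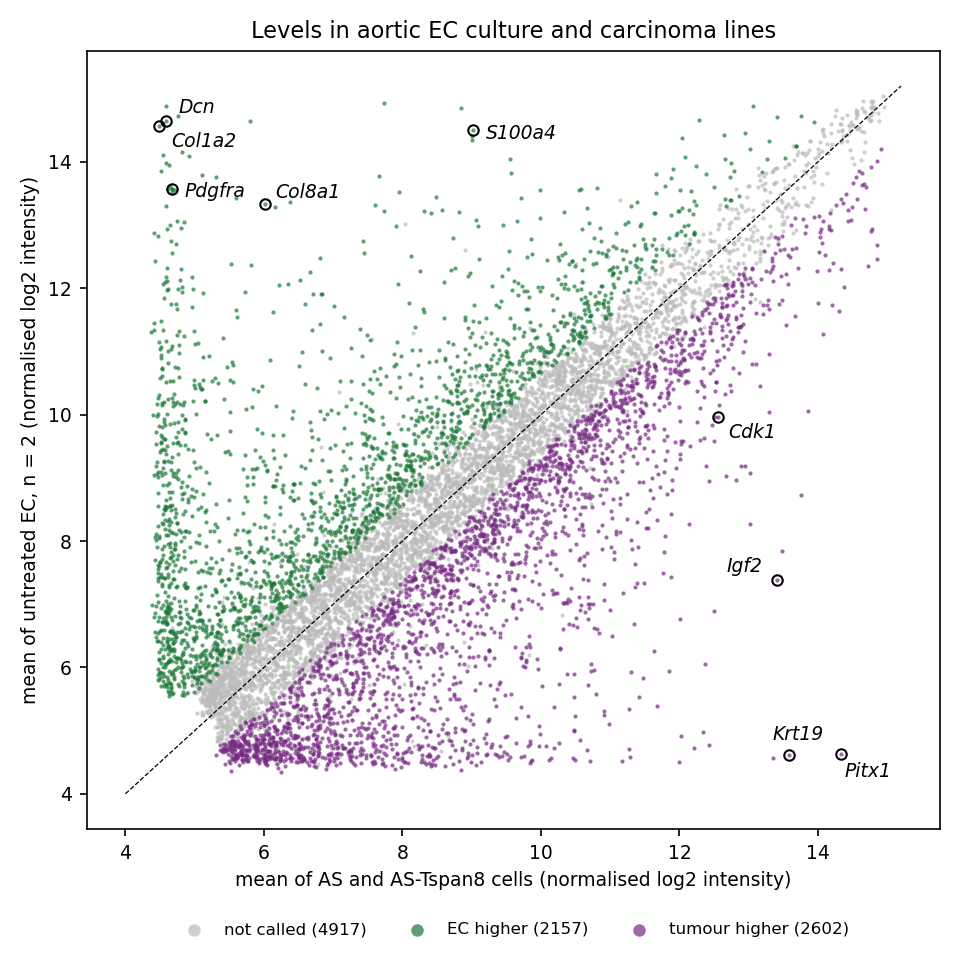
Mean normalised log2 intensity of each of the 9676 features in the carcinoma lines (x axis, mean of AS and AS-Tspan8) and in untreated EC (y axis, mean of 2 arrays), with equal levels on the dashed line. Green points (2157) were higher in EC and purple points (2602) higher in the lines at adjusted p under 0.05. Dcn, Col1a2 and Pdgfra lie at the upper left, and Krt19 and Pitx1 at the lower right.

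The cultures differed in a large share of the genes measured. Of the 9676 features, 4759 (49.2%) passed adjusted p 0.05 in limma's moderated test with Benjamini-Hochberg adjustment, with 2157 (22.3%) higher in EC, 2602 (26.9%) higher in the lines and 4917 not called. An unadjusted p under 0.05 was found for 5587 features, where 484 would be expected by chance. The arrays of the groups did not overlap for 7680 features (79.4%). The calls reached beyond 3 log2 units for 426 features higher in EC and 312 higher in the lines. Without EC replicate 1 the calls were 1252 and 1436, and without EC replicate 2 they were 1169 and 1329. The balance of directions depends on the scaling: EC-higher calls were 45.3% of calls after quantile normalisation, 19.6% with no scaling between arrays (736 against 3024) and 20.6% with scaling to the median of all probes (991 against 3819). The median difference of all features was -0.04, -0.82 and -0.69 under these scalings, and the differences given below are relative to the main one.

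The 4 markers set beforehand for a fibroblast-like and a simple epithelial culture were at opposite ends of this range. They were chosen with earlier results of these data known, so their place in the range is a description. Each was detected in 1 group alone and so had to differ, whatever its p-value. Dcn (decorin, a small collagen-binding proteoglycan) read 24324 and 26661 on the EC arrays, 67.9 in AS and 76.0 in AS-Tspan8. Col1a2, a chain of the main fibrillar collagen, read 23632 and 25142 against 62.9 and 70.0. Pdgfra read 10112 and 10840 against 74.4 and 76.9. All 3 were detected on both EC arrays and in neither line. Krt19, a keratin of ductal and other simple epithelia, read 60.9 and 77.4 in EC, without detection, and 9554 and 20409 in the lines. Most of its list did not follow: of 24 simple epithelial genes on the array 7 were detected in both lines and 15 on none. Of 8 tested, 4 were higher in the lines and 2 in EC. Where a group gave no detection its level has only an upper bound, so the fold is given as a minimum: the mean of the bright group over, on each dim array, the higher of the lowest detected level and the probe's own. Dcn was at least 659-fold higher in EC (10.06 ± 0.18, adjusted p = 3.79e-05), Col1a2 at least 628-fold (10.09 ± 0.18) and Pdgfra at least 315-fold (8.91 ± 0.18). Krt19 was at least 269-fold higher in the lines (-8.96 ± 0.25, adjusted p = 4.69e-05).

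The endothelial label was not borne out by the endothelial list. Of 26 listed genes 20 had a named probe, and 15 of these were detected on none of the 4 arrays. The undetected genes include Cdh5, Vwf, Tek, Tie1, Nos3 (endothelial nitric oxide synthase) and the endothelial transcription factor gene Erg. Pecam1 and Kdr had no named probe here. Only 3 of the 20 were detected on both EC arrays, and 4 in both lines, against 47.6% and 48.6% of all 13337 named genes. Their summed signal was 3273 and 3036 in EC, 1774 in AS and 2337 in AS-Tspan8. Ramp2, a co-receptor for adrenomedullin, made up much of the EC sum: it read 1917 and 1421 in EC against 214 in AS and 308 in AS-Tspan8, and the groups did not overlap (3.81 ± 0.26, adjusted p = 0.000433). Clec14a, an endothelial lectin-like receptor, read 139 and 180 against 132 and 173, which overlap as signals (0.89 ± 0.20, adjusted p = 0.0171). Clec14a lost its call without EC replicate 1 or 2 (adjusted p up to 0.0990) and with no scaling. Plvap, the diaphragm protein of fenestrated endothelium, was detected only in the lines, at 141 and 294 against 74.0 and 90.9 in EC, and was at least 2.41-fold higher there. Whether these probes detect their genes in rat endothelium was not tested, since the 4 arrays hold no other endothelial sample. Because RNA of whole cultures was measured, fewer cells of a type and less RNA per cell cannot be told apart. EC is kept below as the label of the arrays, not as the name of a cell type, and the cells are called the aortic culture.

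**Figure D2:**
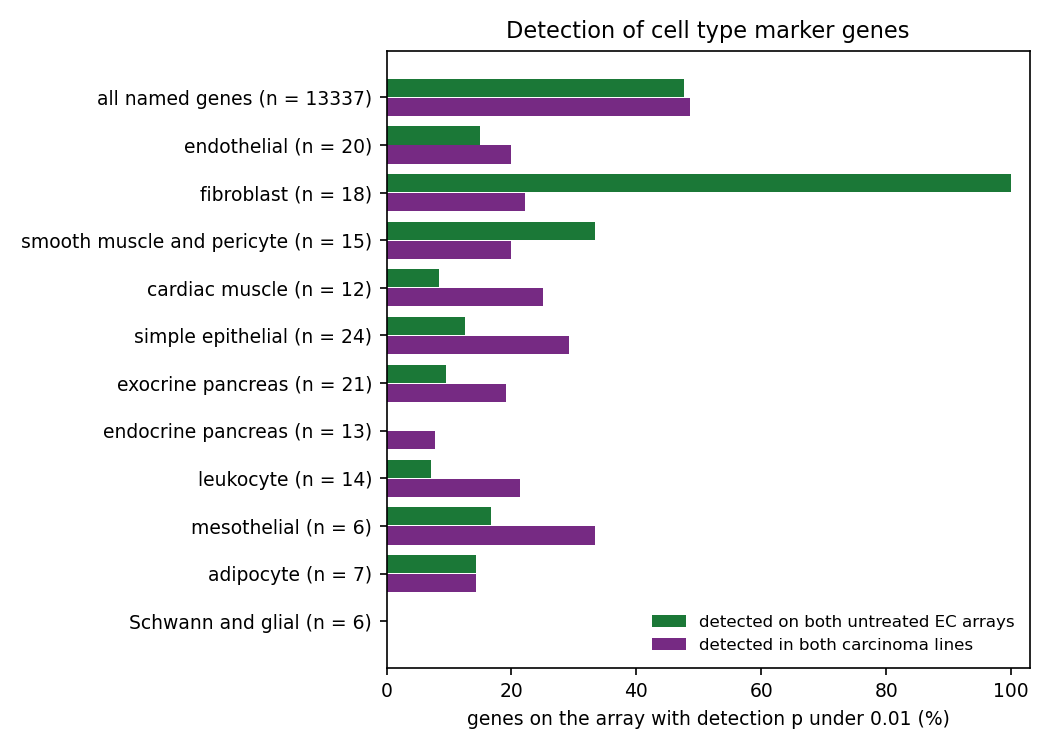
Share of the named genes of each marker list (y axis, with the number on the array) that had a detection p-value under 0.01 on both EC arrays (green) or in both lines (purple). The fibroblast list stands at 100% in EC and 22.2% in the lines, the endothelial list at 15% and 20%, and all named genes at 47.6% and 48.6%.

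Fibroblast markers formed the most complete list in the aortic culture. All 18 listed genes with a probe were detected on both EC arrays, and 4 in both lines. In the test 15 were higher in EC, 0 in the lines and 3 were not called, with a median of 3.69 against -0.06 over the 7187 named genes. List medians here and below use undetected levels as read, so they can overstate the difference. With the minimum in place of the difference wherever a gene has one, the median was 3.17, against -0.05 over all named genes. Of the 18, 13 entered the test only through EC. A gene detected in EC alone had to differ, so the detection count is the plainer measure. The same limit holds for the counts of the other lists below, as far as their members were detected in 1 group alone. Over all named genes 22.8% were higher in EC and 27.0% in the lines, and list shares are to be read against these. Summed over the list, the signal was 104632 and 108539 in EC, 5837 in AS and 12884 in AS-Tspan8.

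The members included proteoglycans, collagens and a protease. Lum (lumican, a collagen-organising proteoglycan) read 11482 and 9683 in EC and 68.7 and 85.0 in the lines, at least 313-fold. Col6a1, a chain of the microfibrillar collagen VI, read 5316 and 8514 against 69.2 and 80.8, at least 213-fold. Fap, the membrane protease that marks activated fibroblasts, read 1536 and 2475 against 56.3 and 58.0, at least 65.4-fold. These genes were strong on every EC array and at background in both lines. Other classical markers were likewise detected in EC and in neither line. Col1a1 read 261 and 291 against 63.3 and 68.0, Postn 138 and 130 against 71.7 and 72.1, and Thy1 354 and 717 against 72.6 and 73.7. Col1a1 and Col1a2 encode the chains of the same collagen, but levels of different probes cannot be set against each other. The 3 members without a call were also detected in a line. Fbln1, a basement membrane protein, read 2086 and 1968 in EC and 1982 and 2367 in the lines (0.78 ± 0.28, adjusted p = 0.0683). Col3a1 read 453 and 735 in EC and 536 in AS, and was not detected in AS-Tspan8 (82.1).

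**Figure D3:**
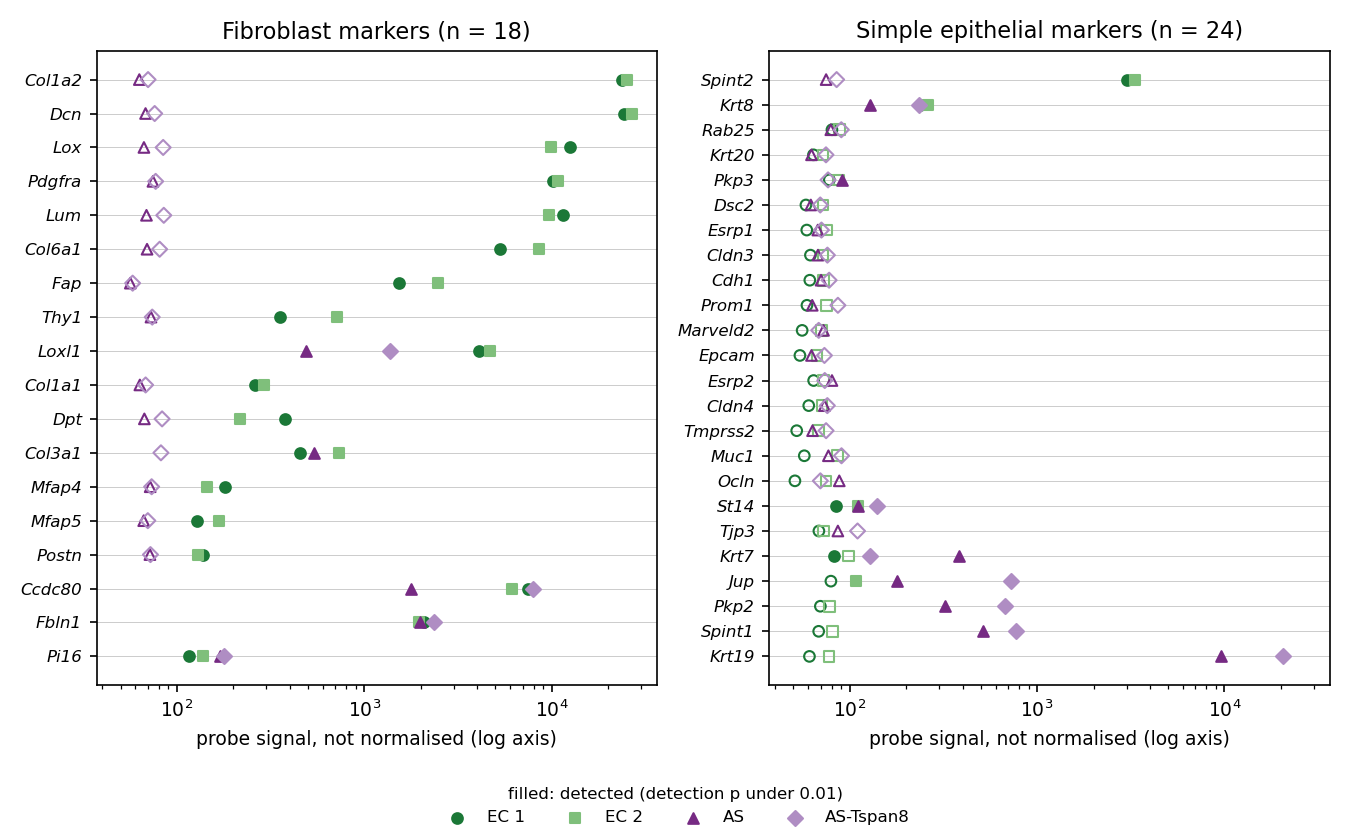
Signals before normalisation (x axis, log scale) of each fibroblast and simple epithelial marker gene with a named probe (y axis) on the 4 arrays; filled symbols are detected and open symbols are not. Fibroblast markers are filled in EC throughout, and most epithelial markers are open on all 4 arrays, apart from Krt19 and a few others.

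Smooth muscle and pericyte markers, which an aortic culture could also carry, were sparse. Acta2 and Myh11 had no named probe here. Of 15 genes on the array 5 were detected on both EC arrays, 3 in both lines and 8 on no array, among them Cnn1, Des, Mylk, Myocd, Notch3 and Rgs5. Tagln (transgelin, an actin-binding protein of smooth muscle and of activated fibroblasts) read 971 and 874 in EC and 80.6 and 97.2 in the lines, at least 30.5-fold. Mcam, an adhesion molecule of pericytes and tumour cells, was detected only in the lines (156 and 169 against 62.2 and 70.2, at least 1.86-fold); without EC replicate 2 its adjusted p was 0.0511. Of 7 members tested 5 (71.4%) were higher in EC, 1 in the lines and 1 was not called (median 1.64), and 3 of them were detected in EC alone. The count higher in EC was 3 without EC replicate 1, and 2 both without EC replicate 2 and with no scaling between arrays. The summed signal was 7928 and 5871 in EC, 2461 in AS and 6349 in AS-Tspan8.

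Other cell types gave few detected markers in the aortic culture. Of 14 leukocyte genes 1 was detected on both EC arrays, the monocyte and innate-sensing receptor gene Cd14 (432 and 464 in EC, 355 in AS, 992 in AS-Tspan8), which was not called. The list's summed signal was 1279 and 1503 in EC and 1517 and 2191 in the lines. Of 6 Schwann and glial genes 0 were detected on both arrays of either group, and of 7 adipocyte genes 1 was. Msln (mesothelin), a surface protein of mesothelium, was the exception among 6 mesothelial genes: it read 3268 and 4397 in EC, 253 in AS and 136 in AS-Tspan8 (5.59 ± 0.68, adjusted p = 0.0025). The mesothelial genes Wt1, Calb2 and Upk1b were detected on no array.

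Few simple epithelial markers were detected in the carcinoma lines. Of 24 genes on the array 7 were detected in both lines, 3 on both EC arrays and 15 on none. Over all 13337 named genes 5627 were detected on none. Whether the probes of undetected members detect their genes was not tested, here or for the pancreatic lists below. The adherens junction gene Cdh1 (E-cadherin), Epcam, the claudins Cldn3 and Cldn4, Ocln and the splicing regulator Esrp1 were among the 15. Of 8 members tested 4 were higher in the lines, 2 in EC and 2 were not called (median -1.84). The summed signal was 4670 and 5328 in EC, 12431 in AS and 24425 in AS-Tspan8, and Krt19 alone gave 9554 and 20409 of the sums of the lines. Spint1, an inhibitor of the membrane protease matriptase, read 512 and 775 in the lines and 68.2 and 80.6 in EC, at least 9.22-fold. Pkp2, a desmosomal plaque protein, read 323 and 673 against 69.7 and 78.1, at least 6.6-fold. Jup (plakoglobin) read 179 and 724 against 79.3 and 109 (-2.17 ± 0.49, adjusted p = 0.0173), and without EC replicate 1 or 2 its adjusted p was up to 0.109. Spint2, the close relative of Spint1 and also a protease inhibitor, ran the other way: it read 3004 and 3317 in EC and 74.8 and 85.1 in the lines, at least 104-fold. Krt8, the usual partner keratin of simple epithelia, read 237 and 261 in EC, 128 in AS and 234 in AS-Tspan8 (1.59 ± 0.21, adjusted p = 0.00306; not called without scaling between arrays).

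Few pancreatic genes were detected in the lines. Of 21 exocrine genes 4 were detected in both lines, 2 on both EC arrays and 14 on none. Cela1, a pancreatic elastase, read 123 and 130 in the lines and 64.0 and 82.3 in EC, at least 1.3-fold, and its adjusted p rose to 0.103 without an EC array. Reg1a, a secreted protein of regenerating acinar tissue, read 107 in AS and 4622 in AS-Tspan8 and was undetected in EC (61.7 and 81.7). The lines differed so much that Reg1a was not called (-3.88 ± 1.70, adjusted p = 0.113). Of 13 endocrine genes only Pax6, a transcription factor gene of islets, eye and brain, was detected in both lines (411 and 599 against 56.0 and 67.6, at least 7.1-fold). Cardiac muscle genes were examined as an unrelated list. Of 12, Tnnt2 (cardiac troponin T) stood out at 191 and 163 in EC, 6152 in AS and 2587 in AS-Tspan8 (-4.15 ± 0.75, adjusted p = 0.00889), with an adjusted p of up to 0.0761 when an EC array was left out. The list's other troponin genes, Tnni3 and Tnnc1, were detected in both lines and on neither EC array, so their EC levels have only an upper bound. With these levels as read, Tnni3 was also called higher in the lines (-0.88, limma, adjusted p = 0.0142), and Tnnc1 was not called (-0.23). With minimums in place of differences, the median of the 3 genes tested moved from -0.88 to -0.23. The call of Tnni3 was lost without either EC array and with no scaling between arrays. The sarcomere genes Myh6, Myh7, Myl2 and Actc1 were detected on no array.

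Genes that were detected in 1 group and not in the other were then taken over the whole array. Of the 13337 named genes, 427 (3.2%) were detected on both EC arrays and in neither line, 574 (4.3%) in both lines and on neither EC array, 5724 on all 4 arrays and 5627 on none. The 12 with the highest bound in each direction had signals of at least 9904 on both EC arrays, or of at least 1401 in both lines, and were at background in the other group.

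On the EC side, Srpx, a secreted sushi-repeat protein, read 31764 and 29494 in EC against 71.8 and 71.3 in the lines, at least 779-fold. Cxcl12, the stromal chemokine that binds Cxcr4, read 30802 and 24091 against 80.4 and 74.8, at least 698-fold. Mgp (matrix Gla protein, an inhibitor of calcification in the arterial wall) read 20306 and 14234 against 78.1 and 85.8, at least 469-fold. Each was detected on both EC arrays and at background in both lines. Il1rl1, the receptor for interleukin 33, read 25619 and 10753 against 68.6 and 70.9, at least 458-fold. Agtr1a, the angiotensin II receptor of vascular wall cells, read 15027 and 13827 against 72.0 and 75.7, at least 410-fold. Lox (lysyl oxidase, which crosslinks collagen and elastin) read 12564 and 9904 against 66.6 and 84.3, at least 325-fold. Wfdc18 and the lipopolysaccharide-binding protein gene Lbp were at least 451- and 419-fold higher in EC. The kininogen gene Kng2 was at least 382-fold higher by the probe used (9.35), but its other kept probe differed by only 2.22. With Dcn, Col1a2 and Pdgfra these make 12, and all 12 were also detected on each of the 4 arrays of EC that had been incubated with exosomes, with Srpx at 17761 to 32373 there.

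On the tumour side, Pitx1, a homeodomain factor known for hindlimb and pituitary development, read 16750 in AS and 25636 in AS-Tspan8 against 65.5 and 72.3 in EC, at least 453-fold. Sostdc1, a secreted antagonist of BMP and Wnt signalling, read 7883 and 19084 against 60.6 and 72.3, at least 231-fold. Tmem176b, a membrane protein, read 3730 and 10165 against 65.5 and 80.8, at least 104-fold. The AS-Tspan8 signal was the higher for each of these, as was the summed signal of that array. Tspan12, a tetraspanin of Norrin and Frizzled signalling, read 4271 and 7018 against 75.0 and 79.4, at least 91.3-fold. Aldh1a1, a retinaldehyde dehydrogenase, read 1669 in AS and 15756 in AS-Tspan8 against 59.6 and 66.6, at least 90-fold. Wnt4, a secreted Wnt ligand, ran the other way between the lines, at 4081 in AS and 1769 in AS-Tspan8 against 81.3 and 89.0 in EC, at least 42.2-fold. Itm2a, the imprinted zinc finger gene Plagl1, Arhgap8, the TGF-beta pseudoreceptor gene Bambi and the protease gene Ctsc were at least 54.9-, 54.3-, 50.4-, 44.3- and 42.3-fold higher in the lines. Of these 12, including Krt19, 11 were detected on 0 of the 4 exosome-exposed EC arrays, and Ctsc on 1.

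**Figure D4:**
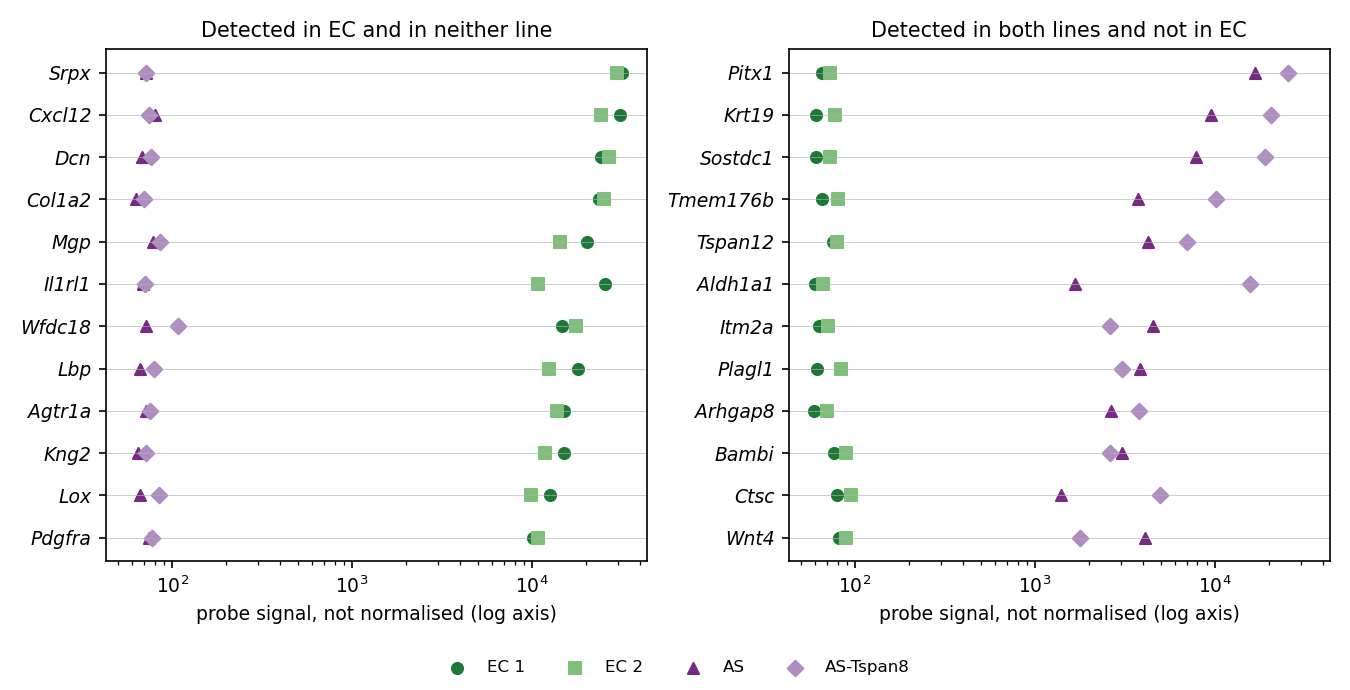
Signals before normalisation (x axis, log scale) of the 12 genes with the highest bound in each direction (y axis). On the left, both EC arrays stand at 9904 or more and both lines at background; on the right, the lines stand at 1401 or more and EC at background.

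The promoters of 4 of these genes are printed because the genes were undetected in 1 group, so that their upstream sequence can be read beside their values. The sequences are the 250 bases before the annotated start on the gene's strand, from RefSeq on the build GRCr8, and both strands were searched for CAGGTG, the E-box bound by Snail and Zeb repressors, and for the core promoter element known as the TATA box (TATAAA). Capitals mark a match, and an E-box on the other strand reads CACCTG. Agtr1a lies at chr17:34435433-34435682 on the minus strand, Pdgfra at chr14:33408517-33408766 (minus), Tmem176b at chr4:79105264-79105513 (minus) and Wnt4 at chr5:154797200-154797449 (plus).
Agtr1a: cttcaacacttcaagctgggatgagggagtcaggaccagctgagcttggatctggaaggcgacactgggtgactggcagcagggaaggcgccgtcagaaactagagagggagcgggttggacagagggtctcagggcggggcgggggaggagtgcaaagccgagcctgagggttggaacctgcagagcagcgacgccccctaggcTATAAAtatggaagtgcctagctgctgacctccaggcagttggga
Pdgfra: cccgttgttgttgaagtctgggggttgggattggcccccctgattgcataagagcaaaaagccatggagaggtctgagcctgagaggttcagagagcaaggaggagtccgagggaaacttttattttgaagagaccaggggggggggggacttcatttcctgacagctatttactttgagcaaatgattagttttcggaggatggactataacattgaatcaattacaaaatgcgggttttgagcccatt
Tmem176b: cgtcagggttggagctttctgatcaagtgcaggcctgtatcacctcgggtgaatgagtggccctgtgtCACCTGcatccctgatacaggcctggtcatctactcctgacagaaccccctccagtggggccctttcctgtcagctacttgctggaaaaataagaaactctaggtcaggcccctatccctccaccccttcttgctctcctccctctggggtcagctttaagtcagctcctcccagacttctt
Wnt4: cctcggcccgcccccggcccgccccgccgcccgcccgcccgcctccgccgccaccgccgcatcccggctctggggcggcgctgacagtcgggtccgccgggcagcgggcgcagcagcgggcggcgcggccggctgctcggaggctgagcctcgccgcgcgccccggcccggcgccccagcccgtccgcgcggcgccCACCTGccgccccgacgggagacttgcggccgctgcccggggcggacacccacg
Agtr1a has a TATA box beginning 45 bases before its start and no E-box, and Pdgfra has neither. Tmem176b has an E-box at -182 and Wnt4 at -54. Among the other genes of the 24 with a window, Col1a2 and Itm2a also hold an E-box. The letters TATAAA occur in Col1a2 (-170), Il1rl1 (-246, on the other strand) and Wfdc18 (-33). A match was counted at any position and on either strand, so it is not by itself a working TATA box. The window of Pdgfra has 47.2% G and C and 4 CpG, and that of Wnt4 has 86.4% and 47 CpG.

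Over all called named genes that were undetected in 1 group and had a bound on their fold, these motifs were counted as a description. A window was found for 317 of 420 genes of the aortic culture and 354 of 460 of the lines. The E-box was in 14.8% of the former and 18.4% of the latter, against 13.4% of the 6017 windows of tested genes and 15.9% of all 33469. The letters TATAAA, at any position and on either strand, were in 10.1% and 5.08%, against 6.4% and 12.9%. The median number of CpG was 12 and 14, against 17 among tested genes. No factor's binding was measured. Dcn, Krt19 and Pitx1 are named only.

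Genes detected on all 4 arrays differed in grade rather than in detection. Highest in EC was Col8a1, a short-chain collagen of the vessel wall, at 7041 and 10591 in EC against 122 and 151 in the lines (7.32 ± 0.27, adjusted p = 7e-05). The matricellular genes Ccn3 (7.19 ± 0.41) and Ccn2 (6.11 ± 0.56), the flavin monooxygenase gene Fmo4 (6.86 ± 0.22), the collagenolytic protease gene Ctsk (6.06 ± 0.18) and the collagen-modifying Plod2 (5.71 ± 0.18) followed. Slpi, a secreted protease inhibitor, read 30936 and 28506 in EC, 317 in AS and 1542 in AS-Tspan8 (6.00 ± 0.50). Clic2 and Fmod (fibromodulin) were higher by 7.00 ± 0.17 and 6.21 ± 0.21.

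Highest in the lines by this measure was Scd, the desaturase that makes oleate, at 4313 in AS and 10712 in AS-Tspan8 against 85.7 and 133 in EC (-6.31 ± 0.33, adjusted p = 0.000189). Igf2, the fetal growth factor, read 32534 in AS and 6536 in AS-Tspan8 against 164 and 196 (-6.02 ± 0.99, adjusted p = 0.00659). Igf2 was the less secure of the pair, since its adjusted p was up to 0.0587 when EC replicate 1 or 2 was left out and the call was lost both times. Enpp2 (autotaxin, which makes lysophosphatidic acid) differed by -5.90 ± 0.43, the LIM protein gene Csrp2 by -5.63 ± 0.25, the homeodomain-only gene Hopx by -5.38 ± 0.42 and the ephrin gene Efnb1 by -5.25 ± 0.38. Pdpn (podoplanin), a mucin-like membrane protein of lymphatic endothelium and invasive tumour cells, read 12412 and 19252 in the lines against 304 and 431 in EC (-5.03 ± 0.20). Arhgap18, Arg2, the HDL receptor gene Scarb1 and Pcdh19 were higher in the lines by 5.64, 4.96, 4.80 and 4.77 log2 units in size.

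Several transcription factors of the mesenchyme were higher in the aortic culture. Of 11 tested 8 (72.7%) were higher in EC, 2 (18.2%) in the lines and 1 was not called (median 3.06). Of these 11, 4 were detected in EC alone and 2 in the lines alone, and so had to differ. The count higher in EC was 5 without EC replicate 1 and 5 without EC replicate 2. Osr1, an odd-skipped factor of mesodermal progenitors, read 3374 and 3473 in EC against 71.5 and 68.3, at least 114-fold. Twist2 read 668 and 872 against 71.2 and 66.9, and its relative Twist1 537 and 686 against 77.0 and 81.0. Both basic helix-loop-helix factors were at background in the lines, with bounds of 25.2- and 19.4-fold. Prrx1 read 1128 and 1078 against 167 in AS and 523 in AS-Tspan8 (3.06 ± 0.37, adjusted p = 0.00251). Snai1, a repressor of Cdh1, read 1079 and 1115 against 272 and 117 (3.88 ± 0.79, adjusted p = 0.0129), and Prrx2 read 3392 and 3399 against 175 and 2290 (3.49 ± 1.01, adjusted p = 0.0376). The calls of Snai1 and Prrx2 were lost without EC replicate 1 or 2, with adjusted p of up to 0.0915 and 0.166. Gata4, an endodermal and cardiac factor, was detected only in the lines (242 and 477 against 63.5 and 67.5, at least 4.6-fold), and Tcf4 was higher there (467 and 616 against 122 and 148; -1.73 ± 0.24).

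Epithelial and pancreatic factors were mostly undetected in both cultures, and whether their probes detect these genes was not tested. Of 20 with a probe 14 were detected on no array, among them Foxa1, Foxa2, Hnf4a, Grhl2, Ovol1 and Ovol2. Of 5 tested 2 were higher in each direction and 1 was not called, with 1 higher in the lines without EC replicate 1. Onecut1, a factor of the pancreatic duct and liver, read 195 and 277 in the lines against 58.2 and 75.8, at least 2.92-fold. Klf4 and Gata6 were instead higher in EC: Klf4 read 1642 and 1362 against 163 and 534 (3.51 ± 0.41), and Gata6, a factor of endoderm and of the vessel wall, read 531 and 660 against 221 and 231 (2.49 ± 0.32).

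Hox genes, which keep the position of a cell along the body, were called in both directions. Of 12 tested 8 (66.7%) were higher in EC, 3 (25%) in the lines and 1 was not called (median 1.79, or 1.37 with minimums). Of these 12, 6 were detected in EC alone and 2 in the lines alone, and so had to differ. Hoxb7 read 1240 and 1378 in EC against 65.6 and 73.0, at least 44-fold. Hoxa7 read 1350 and 1610 against 82.9 and 108, at least 49.9-fold, and Hoxb2 627 and 791 against 70.0 and 65.9, at least 23.1-fold. Hoxd10 was the strongest in the lines, at 231 in AS and 1168 in AS-Tspan8 against 65.6 and 68.5, at least 7.23-fold. With undetected levels as read, Hoxa13 and Hoxb13 were also higher there (-1.54 ± 0.39 and -1.53 ± 0.28), which can overstate the difference. Both calls were lost without EC replicate 1, that of Hoxa13 also without AS and that of Hoxb13 also without EC replicate 2.

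Matrix genes were mostly higher in the aortic culture. Of 27 glycoproteins and proteoglycans tested 22 were higher in EC, 1 in the lines and 4 were not called (median 3.36); 12 of the 27 entered through EC alone. Without EC replicate 2, 18 were higher in EC and 2 in the lines. The list shares members with the fibroblast list. Prelp, a leucine-rich proteoglycan, read 10123 and 10054 in EC against 66.3 and 87.2, at least 305-fold. Ltbp2, Ogn and Fbln5, proteins of elastic and microfibrillar networks or of the collagen matrix, were at least 115-, 107- and 101-fold higher. Fn1 (fibronectin) read 4545 and 6930 in EC, 488 in AS and 3660 in AS-Tspan8 (2.93 ± 0.70, adjusted p = 0.0214), and without an EC array its adjusted p was up to 0.135. Eln (elastin), a product of aortic smooth muscle and fibroblasts, was not called: it read 361 and 1063 in EC and 1383 and 2878 in the lines (-0.87 ± 0.50, adjusted p = 0.198). Loxl2, a lysyl oxidase relative, was the one member higher in the lines, at 951 and 3204 against 108 and 119 (-3.99 ± 0.34, adjusted p = 0.000867).

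Of 12 collagen genes tested 7 were higher in EC, 1 in the lines and 4 were not called (median 2.99, or 2.81 with minimums). This list also shares members with the fibroblast list, among them Col1a1, Col1a2 and Col6a1, and 4 collagens were detected in EC alone. Col4a1, of basement membranes, read 323 and 420 in EC against 82.6 and 80.5, at least 11.2-fold. Col17a1, the transmembrane collagen of epithelial hemidesmosomes, was detected only in the lines (112 and 209 against 53.7 and 69.8, at least 1.6-fold). Col15a1 separated the lines from each other more than from EC, at 146 in AS and 2643 in AS-Tspan8 with 186 and 451 in EC. The hemidesmosome genes divided evenly, with Col17a1 and the integrin gene Itgb4 (238 and 944 against 102 and 121; -1.98 ± 0.43, adjusted p = 0.0154, up to 0.104 without an EC array) higher in the lines and the linker gene Plec (2.55 ± 0.24) and the tetraspanin gene Cd151 (1.11 ± 0.23; not called without scaling between arrays or without either EC array, adjusted p up to 0.0868) higher in EC. Among 7 integrin genes tested 3 (42.9%) were higher in EC and 2 (28.6%) in the lines. With no scaling between arrays 1 was higher in EC, without EC replicate 1 the counts were 2 and 0, and without EC replicate 2 they were 3 and 0. The collagen-binding Itga1 led, at 496 and 501 in EC against 72.3 and 113 (4.26 ± 0.27).

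Proteases and their inhibitors followed the matrix. Of 18 tested 13 were higher in EC, 0 in the lines and 5 were not called (median 2.27); without AS, and with no scaling between arrays, 2 were higher in the lines. The aggrecanase-type genes Adamts5 (1544 and 1784 against 74.2 and 76.4) and Adamts1 (1818 and 1584 against 78.9 and 80.5) were at least 56.2- and 57-fold higher. Serpine2 was at least 30.5-fold higher, and the metalloprotease inhibitor gene Timp2 read 3456 and 6077 in EC against 298 and 651 (4.38 ± 0.30). Mmp14, the membrane-bound collagenase activator, was not called: it read 4521 and 5160 in EC, 3429 in AS and 14136 in AS-Tspan8 (0.14 ± 0.47, adjusted p = 0.822).

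**Figure D5:**
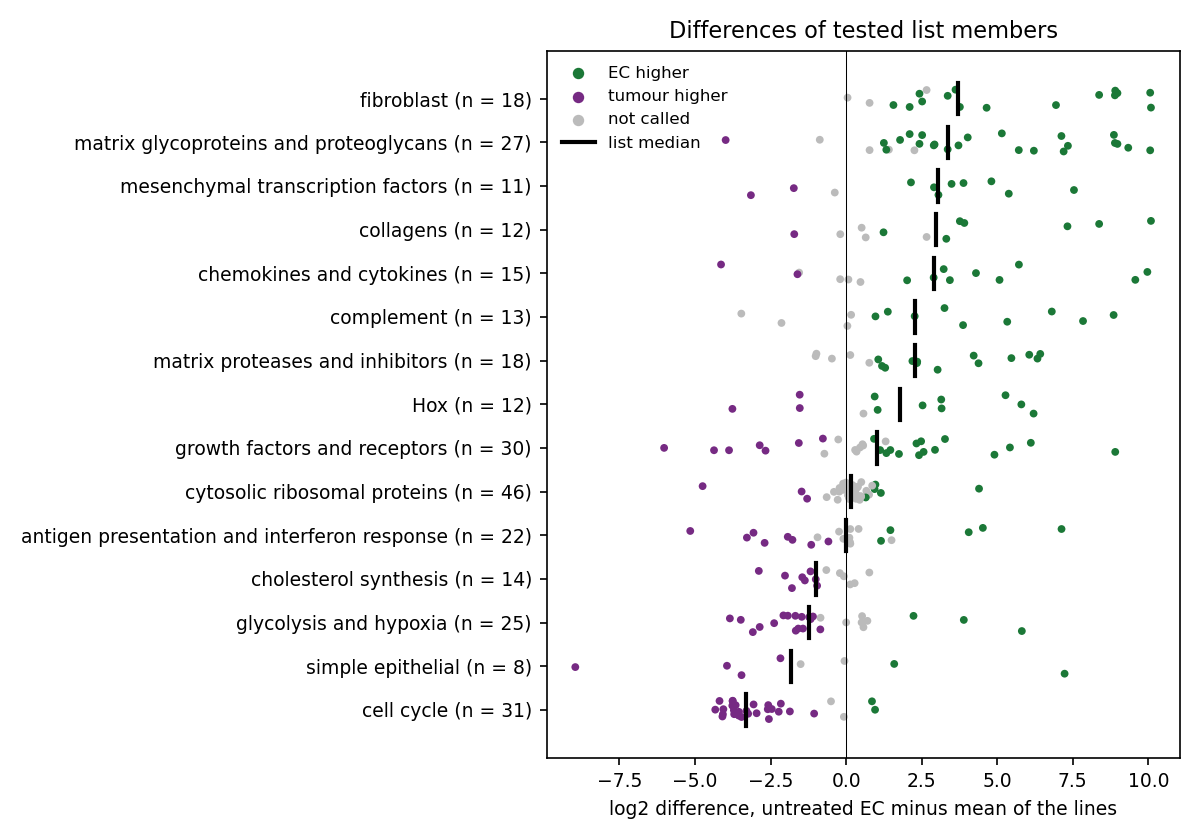
Log2 difference (x axis, EC minus the mean of the lines) of each tested member of 15 gene lists (y axis, with the number tested); green members were higher in EC, purple in the lines and grey were not called, and the bar is the list's median. Medians run from 3.69 for fibroblast genes to -3.30 for cell cycle genes. Undetected levels are used as read, and with minimums these 2 medians were 3.17 and -3.24.

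Growth factors and their receptors divided by ligand. Of 30 tested 15 were higher in EC, 7 in the lines and 8 were not called (median 1.02, or 0.61 with minimums). With no scaling between arrays 11 were higher in EC and 7 in the lines, and fewer were called in both directions without either EC array. Fgf7 (keratinocyte growth factor, a stromal ligand for epithelia) read 1562 and 870 in EC against 75.7 and 124 (5.42 ± 0.42), and the receptor gene Igf1r 515 and 785 against 79.0 and 74.9, at least 20.6-fold. Vegfc, a lymphangiogenic ligand, read 5573 and 4942 against 1000 and 3093 (2.41 ± 0.29). Vegfa ran the other way, at 1277 and 3753 in the lines against 189 and 243 in EC (-2.86 ± 0.28, adjusted p = 0.00125). The VEGF co-receptor gene Nrp1 read 2017 and 4141 in the lines against 260 and 337 (-2.67 ± 0.19), and the stress-induced Gdf15 4934 and 7235 against 252 and 311 (-3.87 ± 0.19). Igfbp2, which binds insulin-like growth factors, was detected only in the lines, at least 10.8-fold higher. So Igf2 and Igfbp2 were higher in the lines and the receptor gene Igf1r in EC.

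Many chemokine and complement genes were higher in the aortic culture. Of 15 chemokine and cytokine genes tested 9 were higher in EC, 2 in the lines and 4 were not called (median 2.90, or 2.67 with minimums). The count in the lines was 1 without either EC array, 4 without AS and 1 without AS-Tspan8. Ccl7, which attracts monocytes, read 5234 and 2219 in EC against 113 and 247 (5.72 ± 0.48), and the membrane-anchored Cx3cl1 3799 and 2394 against 144 and 305 (5.08 ± 0.32). Cxcl10, an interferon-induced chemokine, read 1849 and 3172 in the lines against 113 and 146 (-4.14 ± 0.18, adjusted p = 0.000107). Il33, the ligand of Il1rl1, was not called and split the lines, at 297 and 345 in EC, 105 in AS and 4027 in AS-Tspan8.

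Of 13 complement genes tested 9 were higher in EC, 0 in the lines and 4 were not called (median 2.27, or 1.65 with minimums). With no scaling between arrays 7 were higher in EC, and fewer than 9 were called there without either EC array. In the lines 2 were higher without AS, 1 without AS-Tspan8 and 2 with no scaling between arrays. Serping1, the C1 inhibitor, read 26961 and 24814 in EC, 71.3 in AS and 284 in AS-Tspan8 (8.85 ± 0.74, adjusted p = 0.000801). Cfb (factor B) read 11718 and 7752 against 77.4 and 202 (7.84 ± 0.52), and C4b was at least 100.3-fold higher. Clu (clusterin) read 21115 and 18319 against 333 and 1815 (5.33 ± 0.54). Cfi, the protease that inactivates C3b, was not called, at 115 and 171 in EC, 297 in AS and 10649 in AS-Tspan8 (-3.47 ± 1.46, adjusted p = 0.102).

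Antigen presentation and interferon genes had a median of 0.01, or -0.86 with no scaling between arrays, and of 22 tested 5 (22.7%) were higher in EC, 8 (36.4%) in the lines and 9 were not called. The share higher in EC is near that of all named genes. The counts were 3 and 5 without EC replicate 1, and 3 and 2 without EC replicate 2. The EC-higher members were the class II genes RT1-Da, RT1-Ba and Cd74 and the interferon-induced Ifit2 (1.47) and Irf1 (1.16), and the calls of Ifit2 and Irf1 were lost without either EC array (adjusted p up to 0.105 and 0.0940). RT1-Da, a class II alpha chain, read 7543 and 9397 in EC, 90.6 in AS and 291 in AS-Tspan8 (7.13 ± 0.55, adjusted p = 0.000637). RT1-Ba was higher by 4.52 ± 0.29, and Cd74, the invariant chain, was at least 12-fold higher. The class II beta chain gene RT1-Db1, which is not on the list and was named for its size of difference, was higher by 5.94 ± 0.20. Ciita, the class II transactivator, was detected on no array. Other interferon-induced genes were higher in the lines. Mx2 read 615 and 2516 in the lines against 63.1 and 72.2, at least 18.9-fold, and Oas1a 338 and 429 against 61.2 and 79.1, at least 5.34-fold. The class I light chain gene B2m did not differ by more than the spread between replicates (31985 and 28455 against 28557 and 28118, a difference of 0.11 ± 0.18). These signals are among the brightest given here, and whether the probe was near its ceiling was not tested. RT1 genes form a family of close relatives, so the assignment of a probe to a single member is uncertain.

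Cell cycle genes were mostly higher in the lines. Of 31 tested 27 (87.1%) were higher in the lines, 2 in EC and 2 were not called (median -3.30), against 27.0% of named genes higher in the lines. The summed signal of the list was 11832 and 16936 in EC, 84536 in AS and 137462 in AS-Tspan8. Cdk1, the mitotic kinase, read 665 and 900 in EC, 6119 in AS and 10065 in AS-Tspan8 (-2.59 ± 0.20, adjusted p = 0.000606). Cdc6, which loads the replicative helicase, read 77.3 and 101 in EC against 879 and 1631 (-4.33 ± 0.19), and the helicase subunit gene Mcm3 105 and 155 against 2250 and 2791 (-4.19 ± 0.29). The mitotic cyclin gene Ccnb2 read 426 and 1624 on the EC arrays against 10075 and 14603 (-3.24 ± 0.62), a gap between the EC arrays that other mitotic genes such as Plk1 (92.4 and 251) and Cdc20 (156 and 436) shared, with EC replicate 2 the higher. The inhibitor genes Cdkn1a (0.96 ± 0.30, adjusted p = 0.0473) and Cdkn1b (0.86 ± 0.23, adjusted p = 0.0295) were higher in EC, and both calls were lost without scaling. Cdkn1a also lost its call without either EC array or AS-Tspan8 and Cdkn1b without any 1 of the 4 arrays (adjusted p up to 0.216 and 0.13). Ccnd1, the cyclin that answers to growth factors, was not called (3662 and 4592 against 4457 and 11250; -0.07 ± 0.27). Serum in the medium was 2% for EC and 10% for the lines, and its part in these differences was not tested.

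Many glycolytic enzymes were also higher in the lines. Of 25 glycolysis and hypoxia genes tested 16 were higher in the lines, 3 in EC (5 without AS-Tspan8) and 6 were not called (median -1.22). Slc16a3, the lactate exporter of glycolytic cells, read 5194 and 15135 in the lines against 464 and 386 in EC (-3.85 ± 0.37), whereas Slc16a1, its relative, was higher in EC (5030 and 4327 against 1126 and 2807; 2.23 ± 0.23). The phosphofructokinase gene Pfkp read 4342 and 11416 against 359 and 474 (-3.48 ± 0.28), Pdk1 differed by -3.09 ± 0.22 and Pgk1 by -2.38 ± 0.25. Angptl4, a lipase inhibitor induced by hypoxia and fasting, was at least 39.9-fold higher in EC, and Adm (adrenomedullin, the ligand of the Ramp2 receptor complex) read 6029 and 7222 against 392 and 1693 (3.89 ± 0.44). Of 14 cholesterol synthesis genes tested 8 (57.1%) were higher in the lines, 0 in EC and 6 were not called (median -0.98). The 8 became 2 without EC replicate 1, 5 without EC replicate 2 and 5 without AS-Tspan8. Dhcr7, the last enzyme of the pathway, read 219 and 391 in EC against 2413 and 4545 (-2.89 ± 0.29, adjusted p = 0.00136).

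AS and AS-Tspan8 differed from each other for some genes that enter the comparison. Tspan8 itself, the transgene of AS-Tspan8, read 71.1 and 79.0 in EC, 75.1 in AS and 2036 in AS-Tspan8, and was detected in the last alone. Also undetected in EC and detected in only 1 line were Ass1 (1383 in AS, 82.4 in AS-Tspan8), an enzyme of arginine synthesis, and Reg3g (72.0 and 1503), a secreted lectin. With 1 array per line these values have no replicate check. Several genes high in EC had an AS-Tspan8 signal nearer to EC than that of AS: S100a4, a calcium-binding protein of motile mesenchymal cells, read 21951 and 23894 in EC, 326 in AS and 1900 in AS-Tspan8 (5.48 ± 0.58, adjusted p = 0.00162). S100a6 read 13451 and 12507 against 288 and 4410 (4.25 ± 1.03, adjusted p = 0.0222, up to 0.127 without an EC array). Anxa1 (annexin A1) read 6367 and 3872 against 145 and 4380 and was not called (3.70 ± 1.45, adjusted p = 0.0855). The AS-Tspan8 array also had the higher summed signal, and the part of this in the raw values was not tested beyond the normalisation.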

How the data were processed

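RNA extracted with RNeasy was labelled with Cy3 and hybridised to Illumina BeadChips, per the labels' protocols. Per the file headers, the deposited table holds a signal intensity, not normalised, and a detection p-value for each probe; neither names the scanner software. The 4 arrays were background-corrected with the detection p-values (limma 3.58.1 in R 4.3.3, normexp, offset 16) and quantile-normalised together. Probes with detection p under 0.01 on at least 2 of the 4 arrays were kept (9814), and the brightest probe stood for each named gene. Gene names came from GEO's platform annotation: 13793 probes had 1 symbol, 0 had several and 8730 had none, and 13752 matched RefSeq by gene ID. A linear model compared 2 EC arrays with 2 lines, with empirical Bayes moderation and Benjamini-Hochberg adjustment over all 9676 features at 0.05. The lines are different cell lines treated as 1 group. The fit was run on simulated data drawn from its own model, with no array or line effect. That run cannot speak to the scaling or to treating the lines as 1 group.

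Members and lists were chosen with earlier results of these data known. Of 789 listed symbols 177 had no named probe. Named genes are the 12 largest per direction with detection in 1 group only and on all 4 arrays, the 6 largest called members per direction of each list, up to 4 uncalled and 6 undetected members, and genes detected in 1 line. Fap, Thy1, Postn, Ogn, Fbln5, Fn1, Vegfc, Cdk1, Cdc20, Plk1, Ccnb2 and Gstt2 fall outside this rule and were named after their values were seen. Alternatives covered scaling, background, offset, filter, probe choice, model, the submitters' processed intensity table and each array left out.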

Additional observations from a re-analysis of the deposited data

How the results depend on the processing

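Counts of calls moved by over 1.5 times in a few settings. With no scaling between arrays 736 features were higher in EC and with scaling to the median of all probes 991, against 2157; the lines' higher counts were 3024 and 3819. With each array left out in turn, 1169 to 1966 features were higher in EC and 1329 to 2457 in the lines. Requiring detection on all 4 arrays left fewer genes to test, and 2 fibroblast, 0 simple epithelial and 8 matrix genes were then called in their direction. Over the 16 other settings these counts ran from 14 to 17, 3 to 5 and 18 to 25, those of the cell cycle in the lines from 25 to 28 and of glycolysis from 11 to 17. Scaling to the median of the kept probes, a setting chosen after seeing the data, gave 2244 and 2061 calls. The median absolute log2 difference between the lines was 0.85 without scaling, against 0.24 in the main setting. Anxa7 changed sign without scaling (-0.18) and with all-probe median scaling (-0.051), and Rpl23 without scaling (-0.061). Without scaling the medians of the endothelial (-0.29), integrin (-0.03), detoxification (-0.31), tetraspanin (-0.60) and ribosomal (-0.04) lists were below 0 and in the main setting above it. The cause of these shifts was not tested. No paired analysis was possible because the lines have 1 array each, and no slide or scan block was run, since the files used here give neither. Signals near background bound the fold of undetected genes.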

Other observations

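Detoxification genes were called in both directions. Fmo1, a flavin monooxygenase, read 3361 and 3357 in EC against 65.3 and 74.4 in the lines, at least 111-fold higher (limma, adjusted p = 4.02e-05). Aldh3a1, an aldehyde dehydrogenase, was at least 19.2-fold higher in EC. Gstt1, a glutathione transferase, read 140 and 217 in EC against 1536 and 4585 (-3.59 ± 0.32, adjusted p = 0.00103). Other glutathione transferases were called in EC, among them Gstt2 (1.59) and Gstm2 (3.56, adjusted p up to 0.103 when EC replicate 1 or 2 was left out), and Gsta4 was called in the lines (-1.63). Nqo1, a quinone reductase, was not called (4228 and 6434 against 4223 and 13731). Of 31 members tested 11 were higher in EC, 6 in the lines and 14 were not called, with 5 and 3 called without either EC array and 4 and 8 with no scaling between arrays.

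Tetraspanins, which organise membrane domains and are abundant in exosomes, were called at shares near those of all named genes (22.8% and 27.0%): of 14 tested 4 (28.6%) were higher in EC, 3 (21.4%) in the lines and 7 were not called. Without either EC array, and with no scaling between arrays, 1 was higher in EC. In the lines 2 were higher without EC replicate 2, 5 without AS and 5 with no scaling. Tspan4 read 6027 and 8242 in EC against 701 and 1953 (3.41 ± 0.28). Tspan7 was detected only in the lines, at 349 and 388, and was at least 5.15-fold higher there. Cd81, a common exosome marker, was not called (7999 and 9542 against 9517 and 14047). Anxa3, an annexin, was also detected only in the lines (1076 and 3606 against 61.6 and 71.8, at least 31-fold higher). Podxl, a sialomucin of podocytes, vessels and mesothelium, read 977 and 4576 in the lines and was undetected in EC, at least 33.4-fold.

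Most cytosolic ribosomal protein genes were not called (38 of 46 tested), while 5 were higher in EC and 3 in the lines. The count in EC was 1 without EC replicate 1, 3 without EC replicate 2, 8 without AS, 3 without AS-Tspan8, 1 with no scaling and 13 with scaling to the median of the kept probes. Rps9 read 261 and 300 in EC against 8452 and 12586 (-4.75 ± 0.18), while its other kept probe differed by -0.89. Rpl30 read 2649 and 2011 against 190 and 317 (4.40 ± 0.22). Ribosomal protein genes have many processed copies, so the gene behind a single probe is uncertain.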
